A study of Mus musculus with 15 samples.

Results

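The genes described here are those by which endothelial cells, the cells that line blood vessels, are recognised and by which vessels form and are patterned. They are 37 named genes, found by their symbol on the array, and 36 of them were present among the 27845 gene names carried by the array's non-control spots. These 36 genes were read by 61 of 41174 distinct probes. Esam, a junction adhesion molecule of endothelium, was not on the array under that symbol. A probe named Esam1 is given apart below and enters no count. The gene that the array calls Edg1 is now called S1pr1.

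RNA was taken from whole hearts of mice in 3 groups of 5. Treated db/db mice were homozygous for the leptin receptor mutation (C57BL/KLS-leprdb/leprdb) and received rosiglitazone, an agonist of the nuclear receptor PPARγ, in their chow at 5 mg/kg/day for 4 months. Untreated db/db mice had the same genotype and plain chow over the same 4 months. Non-diabetic db/+ mice (C57BL/KLS-leprdb/lepr+), which carry 1 copy of the mutation, served as controls, as littermates unless the study stated otherwise. The mutation is in the germ line, so every cell type of the db/db heart carries it, and the mice are obese and hyperinsulinemic. The age of the mice is not given in the sources used here. Each heart was labelled with Cy5 and set against a common mouse reference RNA labelled with Cy3, with no dye swap, so every value below is the log2 ratio of heart to reference. A ratio can be compared between hearts for 1 probe, but not between probes.

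Endothelium is defined by adhesion molecules at its junctions, such as Pecam1 and VE-cadherin (Cdh5), and by receptors such as Tek (Tie2), the receptor of the angiopoietins. Its ETS-family factors (Ets1, Erg, Fli1) and SOXF factors (Sox17, Sox18) drive much of the endothelial program, and the KLF factors Klf2 and Klf4 are induced by laminar flow. Notch ligands and receptors set arterial fate and choose the tip cells of a sprout. The heart is dense in capillaries, and whole-heart RNA holds their transcripts beside those of cardiomyocytes, fibroblasts and mural cells. In such RNA, fewer endothelial cells and less RNA per cell cannot be told apart, and several of these genes are also transcribed in other cells of the heart.

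The 15 arrays lay on 4 slides that were each scanned at a time of their own. The first slide held 4 db/+ hearts, the second 3 untreated hearts and 1 db/+ heart, the next 2 treated and 2 untreated hearts, and the last 3 treated hearts. Group and slide largely cannot be told apart, and values within slides 2 and 3 are given beside some of the results. With slide as a fixed block, no gene of the 36 passed in any comparison, and 4 of all probes passed in treated and 34 in untreated hearts against db/+. The median heart signal ranged from 229 to 302 on the 5 treated arrays, from 184 to 247 on the 5 untreated arrays and from 158 to 253 on the 5 db/+ arrays, and between 56.4% and 75.6% of probes were well above background on any array. Between the arrays of treated replicates 3 and 4, the log2 difference in the heart channel had a scaled median absolute deviation over probes of 0.11. For every other pair within a group this spread was 0.23 to 0.57. Treated replicates 3 and 4 were averaged and counted as 1 heart, which leaves 4 treated hearts. The db/+ heart 3 lay farthest from the others of its group. The like spread of its log2 ratio differences from them averaged 0.44, against 0.33 to 0.36 for the other db/+ hearts.

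Several genes had several probes that did not give the same call, so which stretch of the transcript was read matters for what can be said of them. The first 30 bases of each 60-base probe of Ets1, Cxcr4, Cxcl12 and Klf2 are shown, with the brightest probe first, followed by those of Hey1 and Klf4, on which the comparisons with treatment turn. Positions are those of the array design (mm8). Capitals mark the part of a 25-base run that the Ets1 probes 3 and 4 share.
Ets1 probe 1, chr9:32506840-32506899, plus strand: gttggggtctatataaacctgttgaactct
Ets1 probe 2, chr9:32504858-32504917, plus strand: acttagtgttagttacggggcggtaagtct
Ets1 probe 3, chr9:32503806-32503865, plus strand: acaaacctaagATGAATTATGAGAAACTGA
Ets1 probe 4, chr9:32503796-32503855, plus strand: aagaggaaaaacaaacctagcATGAATTAT
Cxcr4 probe 1, chr1:130416628-130416687, minus strand: catattatgtggggatcagcatcgactcct
Cxcr4 probe 2, chr1:130416048-130416107, minus strand: aggaagaaactgaacattccagaatgtgtg
Cxcl12 probe 1, chr6:117146828-117146887, plus strand: aggagaaggcagcttcctatatgcagcgtg
Cxcl12 probe 2, chr6:117140075-117140134, plus strand: gaattaatcataaacggaagtttaaatgag
Klf2 probe 1, chr8:75250227-75250286, plus strand: tgtatataagactatgaccgattgtatttc
Klf2 probe 2, chr8:75248851-75248910, plus strand: acacgccgccgctcagccccgacggccccc
Hey1, chr3:8646505-8646564, minus strand: gatttgggctctaaaagtattgttttacag
Klf4, chr4:55549061-55549120, minus strand: aagcgctacaatcatggtcaagttcccagc
The 4 Ets1 probes thus lie at 3 separate places of the gene, and the 2 Cxcl12 probes were designed to different transcripts. Of the 61 probes, 53 carried an accession that RefSeq (GRCm38.p6) still lists, and each of those 53 pointed to the gene named on the array.

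The upstream sequence of 3 genes that moved in different ways is shown because the ETS factors and the KLF factors were themselves among the genes measured. Cxcr4 fell in untreated hearts at both probes, Jag1 was called as lower there at its brightest probe, and Klf4 was higher in treated hearts. Each sequence is the 250 bases before the transcription start, from RefSeq (GRCm38.p6), and capitals mark GGAA or its complement TTCC, the core of ETS sites.
Cxcr4, chr1:128592300-128592549, minus strand: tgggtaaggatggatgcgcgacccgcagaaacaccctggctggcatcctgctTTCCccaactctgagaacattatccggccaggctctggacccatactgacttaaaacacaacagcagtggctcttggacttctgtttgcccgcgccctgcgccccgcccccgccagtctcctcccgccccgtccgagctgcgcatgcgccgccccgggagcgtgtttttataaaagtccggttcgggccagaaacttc
Jag1, chr2:137116521-137116770, minus strand: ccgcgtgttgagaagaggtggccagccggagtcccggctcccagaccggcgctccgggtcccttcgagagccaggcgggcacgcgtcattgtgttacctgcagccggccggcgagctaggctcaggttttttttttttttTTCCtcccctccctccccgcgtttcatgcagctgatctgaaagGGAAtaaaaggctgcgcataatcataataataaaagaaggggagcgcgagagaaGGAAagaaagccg
Klf4, chr4:55532476-55532725, minus strand: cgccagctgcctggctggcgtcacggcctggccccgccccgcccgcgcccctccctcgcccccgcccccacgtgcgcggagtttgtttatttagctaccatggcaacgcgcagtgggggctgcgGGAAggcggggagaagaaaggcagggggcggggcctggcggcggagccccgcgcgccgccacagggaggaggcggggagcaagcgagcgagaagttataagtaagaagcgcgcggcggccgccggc
GGAA, read on both strands, occurred in 18 of the 20 members listed in the promoter table (90%), against 93.4% of 27025 promoters of the same length. CACCC, bound by KLF factors, was found in 15 of 20 (75%) against 51.3%. The RBPJ motif GTGGGAA, which holds a GGAA, was found in 2 of 20 (10%) against 5.41%. ACAAT, bound by SOX factors, was found in 6 of 20 (30%) against 28.3%, and the E-box CANNTG in 12 of 20 (60%) against 66.0%. The hypoxia motifs ACGTG and GCGTG were found in 2 of 20 (10%) and 7 of 20 (35%), against 16.6% and 28.2%. These are descriptions of letters and name no bound factor.

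Hearts of untreated db/db mice differed from db/+ hearts in 6 of the 36 genes. Ets1, Cxcr4, Hey1 and Jag1 were lower, and Edg1 and Fgf2 were higher. The 6 genes are 16.7% of the 36, against 7.78% of all 27534 probes tested in this comparison. The genes and the lists below were chosen with earlier results of these data known, so such shares are descriptions and no test of the set. Each gene was read at its brightest probe, while the share of all probes includes dim ones. With a stricter filter on dim probes, 5 of the 32 genes left were called, against 11.6% of all probes. Fgf2, 1 of the 6, was tested only because of the db/db groups, in which it was higher, so it gives no support to the count of 6. Its probe was well above background on 5 treated, 4 untreated and 2 db/+ arrays. For lower genes the share was 4 of 36 against 3.4% of all probes, and for higher genes 2 of 36 against 4.38%. A gene was called by its brightest probe where limma's moderated test gave a Benjamini-Hochberg adjusted p under 0.05 over all probes tested. The median difference of the 36 genes was -0.05 on the log2 scale, against 0.01 over all probes, with 15 genes above 0 and 21 below. At an unadjusted p under 0.05, 10 of the 36 genes (27.8%) were counted, 3 higher and 7 lower, against 25.5% of all probes, 13.8% higher and 11.7% lower, so at that threshold the share lay near that of the array as a whole.

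In hearts of rosiglitazone-treated mice, 3 of the 36 genes were called against db/+. Ets1 was lower, and Klf4 and Fgf2 were higher. Here too, Fgf2 was tested only because of the db/db groups, in which it was higher. This is 8.33% of the genes, close to the 8.74% of all probes called in this comparison, of which 4.5% were higher and 4.23% lower. With the stricter filter on dim probes, 4 of the 32 genes left were called, against 12.5% of all probes. The median difference of the 36 genes was 0.01, the same to 2 decimals as over all probes. At an unadjusted p under 0.05 there were 9 genes (25%), 5 higher and 4 lower, against 26.8% of all probes, 13.1% higher and 13.7% lower. Both comparisons use the same db/+ hearts, so their lists are not independent.

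Between treated and untreated db/db hearts, none of the 36 genes passed, and neither did any of the 27534 probes in limma's test (0% called). At an unadjusted p under 0.05, 7 genes differed, each higher in treated hearts, which is 19.4% of the 36 against 8.78% of all probes, 4% higher and 4.78% lower. The 2 groups did not overlap for 4 genes (Hey1, Klf4, Fli1 and Thbs1), 11.1% against 4.53% of all probes. These shares too are descriptions, since the genes were chosen with earlier results of these data known. The 7 genes at the unadjusted threshold were Hey1, Klf4, Fli1, Thbs1, Jag1, Angpt2 and Cxcr4. The median difference of the 36 genes was 0.04, against -0.01 over all probes, with 18 genes above 0 and 18 below. With the remade ratios described below, the 7 became 5 with centring, 5 with loess and 1 with normexp. With slide as a fixed block the count was 2.

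**Figure D1:**
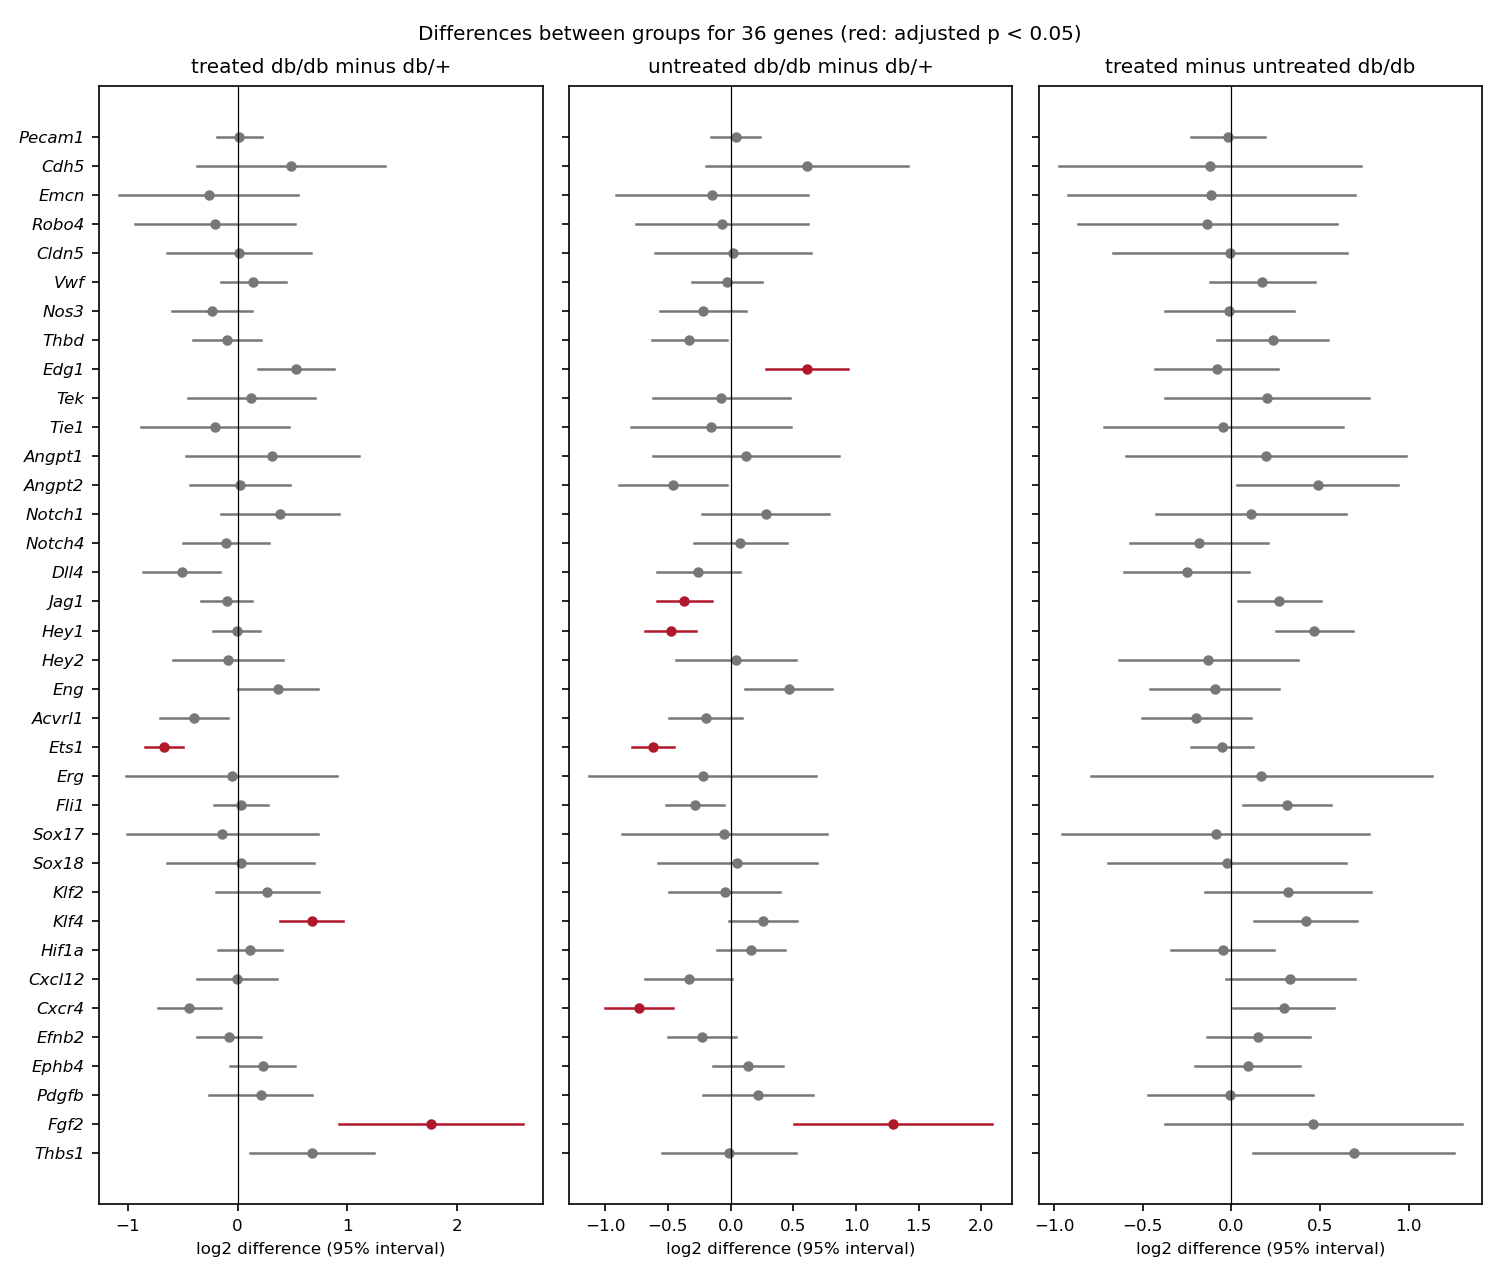
Log2 differences of 36 genes at their brightest probe, with 95% intervals, for treated db/db minus db/+ (left), untreated db/db minus db/+ (middle) and treated minus untreated db/db (right); the x axes are on the log2 scale and differ in range. Red marks an adjusted p under 0.05, which 3 genes reached on the left, 6 in the middle and 0 on the right.

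The genes of endothelial surface identity did not pass in any comparison. Pecam1, a homophilic adhesion molecule of endothelium and platelets, measured 2.43, 2.54, 2.50 and 2.46 in the 4 treated hearts, 2.50, 2.59, 2.38, 2.54 and 2.52 in untreated hearts, and 2.57, 2.37, 2.26, 2.40 and 2.74 in db/+ hearts. The groups overlapped throughout, and the difference of untreated from db/+ hearts was 0.04 with a 95% interval from -0.16 to 0.24. That of treated from db/+ hearts was 0.02, from -0.19 to 0.23. Pecam1 thus had one of the narrowest intervals of the set. Its second, much dimmer probe was lower in both db/db groups, by -0.73 in treated and -0.67 in untreated hearts, and passed in neither (adjusted p = 0.155 and 0.173).

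Cdh5, the cadherin of endothelial adherens junctions, measured 8.12, 7.42, 7.68 and 7.5 in treated hearts, 8.11, 8.09, 8.08, 7.65 and 7.06 in untreated hearts, and 8.27, 6.54, 6.01, 7.24 and 7.92 in db/+ hearts. The db/+ hearts spread the most and covered the range of both db/db groups. The interval for untreated against db/+ ran from -0.20 to 1.41, so a change of considerable size could not be seen here. At the second Cdh5 probe the difference was 0.03 (-0.41 to 0.47).

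Emcn, a sialomucin of capillaries and veins, differed by -0.26 in treated and -0.15 in untreated hearts from db/+. Robo4, an endothelial guidance receptor, differed by -0.21 in treated and -0.07 in untreated hearts, and Cldn5, the claudin of endothelial tight junctions, by 0.01 in treated and 0.02 in untreated hearts. Their intervals were wide, from -0.92 to 0.61 for Emcn and from -0.60 to 0.64 for Cldn5 in untreated hearts. The probe named Esam1 differed by 0.01 in treated and 0.03 in untreated hearts. Vwf, the carrier of clotting factor VIII, was measured more tightly, with a difference of 0.14 (-0.15 to 0.44) in treated and -0.03 (-0.31 to 0.25) in untreated hearts.

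The angiopoietin receptors gave the same picture. Tek measured 5.53, 4.96, 5.65 and 5.68 in treated hearts, 5.32, 5.92, 5.01, 5.40 and 4.63 in untreated hearts, and 5.47, 4.89, 6.0, 4.95 and 5.33 in db/+ hearts. Tie1, the orphan receptor that pairs with Tek, measured 2.71, 2.61, 2.90 and 3.14 in treated hearts, 2.55, 3.69, 2.62, 3.15 and 2.43 in untreated hearts, and 2.99, 2.54, 4.11, 2.6 and 2.99 in db/+ hearts. For both receptors the 3 groups overlapped, with differences from db/+ between -0.20 and 0.13. The dimmer Tek probe was lower by -0.96 in treated and -0.70 in untreated hearts and passed in neither (adjusted p = 0.129 and 0.24).

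Many of the surface genes had their extremes in the same hearts. Of 9 endothelial markers (Pecam1, Cdh5, Tek, Tie1, Emcn, Erg, Robo4, Cldn5 and Vwf), 8 were highest among untreated hearts in heart 2 and 7 were lowest in heart 5. Among db/+ hearts 6 of 9 were highest in heart 3 and 6 were lowest in heart 2, but Pecam1 and Cdh5 were lowest in heart 3. The mean log2 ratio of the 9 markers was 5.0 ± 0.15 in treated hearts (SD, n = 4), 4.99 ± 0.44 in untreated hearts (n = 5) and 4.99 ± 0.45 in db/+ hearts (n = 5). The mean of 9 cardiomyocyte genes had its extremes in the same hearts, at 6.72 and 4.54 in untreated hearts 2 and 5 and at 7.19 and 3.24 in db/+ hearts 3 and 2. Its group means were 5.95 ± 0.19, 5.67 ± 0.82 and 5.71 ± 1.5 in treated, untreated and db/+ hearts. The part of this spread in the results on endothelial genes was not tested.

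**Figure D2:**
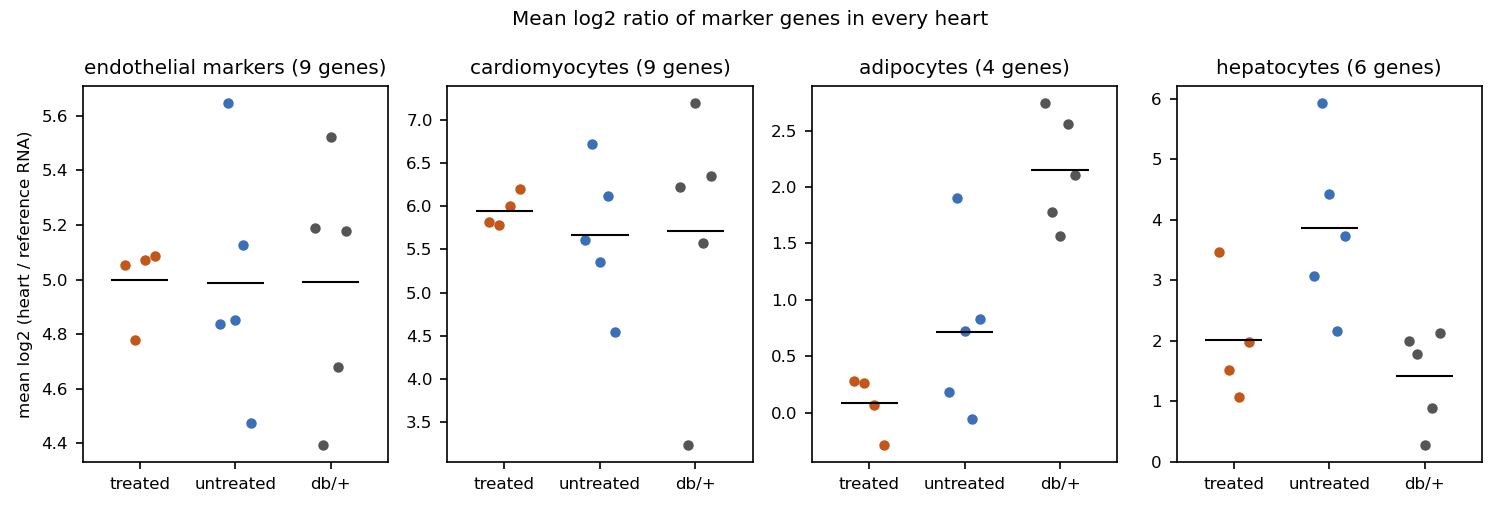
Mean log2 ratio of heart to reference for the genes of 4 marker lists in every heart (points), with the group mean (line), for treated db/db, untreated db/db and db/+ hearts; the y axes differ. The 3 endothelial means lie at 4.99 to 5.0, whereas the adipocyte means run from 1.56 to 2.74 in db/+ hearts, above all treated hearts and all untreated hearts but 1.

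Markers of other cells did differ between the groups. The mean of 4 tested adipocyte genes ranged from -0.29 to 0.28 in treated, from -0.06 to 1.90 in untreated and from 1.56 to 2.74 in db/+ hearts, and 2 of the 4 (Adipoq and Cfd) passed as lower in each db/db group. None of the 6 listed adipocyte genes was well above background on all 15 arrays. The mean of 6 hepatocyte genes ranged from 1.06 to 3.46, from 2.15 to 5.93 and from 0.27 to 2.14 in treated, untreated and db/+ hearts, with 2 passing as higher in untreated and 1 in treated hearts. Lists for cardiomyocytes, fibroblasts, mural cells, macrophages, red cells, endocardium and lymphatic endothelium held no gene that passed, and the platelet list held 1, Ppbp, lower in untreated hearts. Of all probes, 4.5% passed as higher and 4.23% as lower in treated hearts, and 4.38% and 3.4% in untreated hearts. The part of this difference in make-up in the results on endothelial genes was not tested.

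Among transcription factors, Ets1 gave the smallest adjusted p of the set. Ets1 is the founding member of the ETS family and is made in endothelium and lymphocytes. At its brightest probe it measured 0.28, 0.19, 0.17 and 0.28 in treated hearts, 0.46, 0.23, 0.25, 0.15 and 0.32 in untreated hearts, and 0.84, 1.0, 0.93, 0.84 and 0.89 in db/+ hearts. Every db/db heart was below every db/+ heart, a separation seen in 14.6% of all probes for treated hearts and 7.8% for untreated hearts. The difference was -0.67 ± 0.08 (SE) in treated hearts, 1.59-fold lower with adjusted p = 0.000389, and -0.62 ± 0.08 in untreated hearts, 1.54-fold lower with adjusted p = 0.000487. With the remade ratios described below, the call was lost with centring (-0.47 in treated and -0.53 in untreated hearts, adjusted p = 0.0922 and 0.0544) and with normexp (-0.42 and -0.38, adjusted p = 0.0841 and 0.0703). Between the db/db groups the difference was -0.05 (-0.23 to 0.12). Within slide 2 the difference of the 3 untreated hearts from the db/+ heart was -0.58.

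The other Ets1 probes did not move as one. Probe 2 measured 0.66, 0.60, 0.50 and 0.16 in treated hearts, 0.21, 0.03, -0.14, 0.22 and 0.17 in untreated hearts, and 0.57, 0.87, 0.65, 0.82 and 0.84 in db/+ hearts. It fell in untreated hearts (-0.65, adjusted p = 0.00428), while in treated hearts the difference was -0.27 with adjusted p = 0.167. Probe 3 measured -0.54, -0.55, -0.76 and -0.74 in treated hearts, -0.68, -0.95, -0.57, -0.73 and -0.57 in untreated hearts, and -0.51, -0.40, -0.50, -0.44 and -0.66 in db/+ hearts. Its differences were -0.15 in treated and -0.20 in untreated hearts, with adjusted p = 0.372 and 0.194. Probe 4, which shares 25 bases with probe 3, was dim, being well above background on 4 treated, 3 untreated and 3 db/+ arrays. It measured 0.39, -0.46, -0.02 and -1.08 in treated hearts, -0.55, -0.50, -0.35, -1.27 and -0.28 in untreated hearts, and -1.21, -0.09, -0.33 and -0.56 in the 4 db/+ hearts that gave a ratio. Its difference was 0.25 (-0.44 to 0.95) in treated and -0.04 (-0.70 to 0.62) in untreated hearts.

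The other ETS factors of endothelium did not pass. Erg, which maintains endothelial junctions, differed by -0.06 in treated and -0.22 in untreated hearts, with an interval from -1.13 to 0.68 in the second case. Fli1 measured 1.55, 1.46, 1.69 and 1.71 in treated hearts, 1.37, 1.42, 1.08, 1.42 and 1.13 in untreated hearts, and 1.44, 1.46, 1.83, 1.68 and 1.44 in db/+ hearts. The untreated hearts lay below all others at this probe. The difference of untreated from db/+ hearts was -0.28, and within slide 2 it was -0.14. The difference of treated from untreated hearts was 0.31 ± 0.11 (SE), with an unadjusted limma p of 0.0165 and adjusted p = 0.472. Within slide 3 that difference was 0.23, and at the second Fli1 probe, over all hearts, it was 0.12. Of 12 ETS factors tested, Ets1 was the 1 that passed against db/+, in either db/db group. As lower, 4.23% of all probes passed in treated and 3.4% in untreated hearts.

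Klf4, a flow-induced zinc finger factor, was higher in treated hearts. It measured 1.07, 0.91, 1.07 and 0.79 in treated hearts, 0.30, 0.78, 0.72, 0.17 and 0.73 in untreated hearts, and 0.44, 0.32, 0.32, 0.12 and 0.23 in db/+ hearts. The treated hearts lay above every heart of both other groups, and untreated hearts overlapped db/+ hearts. Against db/+ the difference of treated hearts was 0.67 ± 0.13 (SE), 1.60-fold higher with adjusted p = 0.00961, and that of untreated hearts 0.26 with adjusted p = 0.222. Against untreated hearts the treated hearts were 0.42 higher (0.13 to 0.71), with an unadjusted limma p of 0.00785 and adjusted p = 0.445. Within slide 3 the difference of treated from untreated hearts was 0.53.

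Klf2, the paralog of Klf4 with a like response to flow, gave a different answer at each of its probes, which were about equally bright. Probe 1 measured 2.88, 2.57, 2.86 and 2.0 in treated hearts, 2.28, 2.63, 2.18, 1.81 and 2.38 in untreated hearts, and 2.89, 2.17, 2.08, 2.11 and 2.27 in db/+ hearts. Its difference was 0.27 (-0.20 to 0.74) in treated and -0.05 (-0.49 to 0.39) in untreated hearts. Probe 2 measured 0.38, 0.93, 0.54 and 0.83 in treated hearts, -0.03, 0.69, 0.22, 0.30 and 0.33 in untreated hearts, and 0.11, -0.65, -0.58 and -0.21 in the 4 db/+ hearts that gave a ratio. There the treated hearts lay above all db/+ hearts. The difference was 1.0 ± 0.19 (SE) in treated hearts, 2.0-fold higher with adjusted p = 0.00972, and 0.64 in untreated hearts with adjusted p = 0.0546. Of 12 KLF factors tested, Klf4 passed as higher and Klf7 as lower in treated hearts, and none passed in untreated hearts. In treated hearts, 4.5% of all probes passed as higher and 4.23% as lower.

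The SOXF factors Sox17 and Sox18 were not called. Sox17 differed by -0.14 (-1.01 to 0.73) in treated and -0.05 (-0.87 to 0.77) in untreated hearts, and Sox18 by 0.03 and 0.05. Sox7, the third SOXF factor and no member of the 37, was lower in untreated hearts by -0.85 (adjusted p = 0.0153) and passed as lower in both db/db groups at its second probe. It was the 1 gene called among 9 SOX factors tested, against 3.4% of all probes called as lower in untreated hearts. Hif1a, the oxygen-regulated factor whose control is mostly at the protein level, differed by 0.11 in treated and 0.16 in untreated hearts. Of 16 hypoxia target genes tested, 3 rose in treated hearts (Ddit4, Bnip3 and Ldha) and 1 in untreated hearts (Ddit4). Of all probes, 4.5% passed as higher in treated and 4.38% in untreated hearts. The second Ldha probe was not called in treated hearts (0.14, adjusted p = 0.551). Ddit4, a stress-induced inhibitor of mTORC1, differed by 1.78 in treated and 1.63 in untreated hearts (adjusted p = 0.00875 and 0.0106). The 9 tested genes of the hypoxia-inducible factors and their regulators held none that passed.

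**Figure D3:**
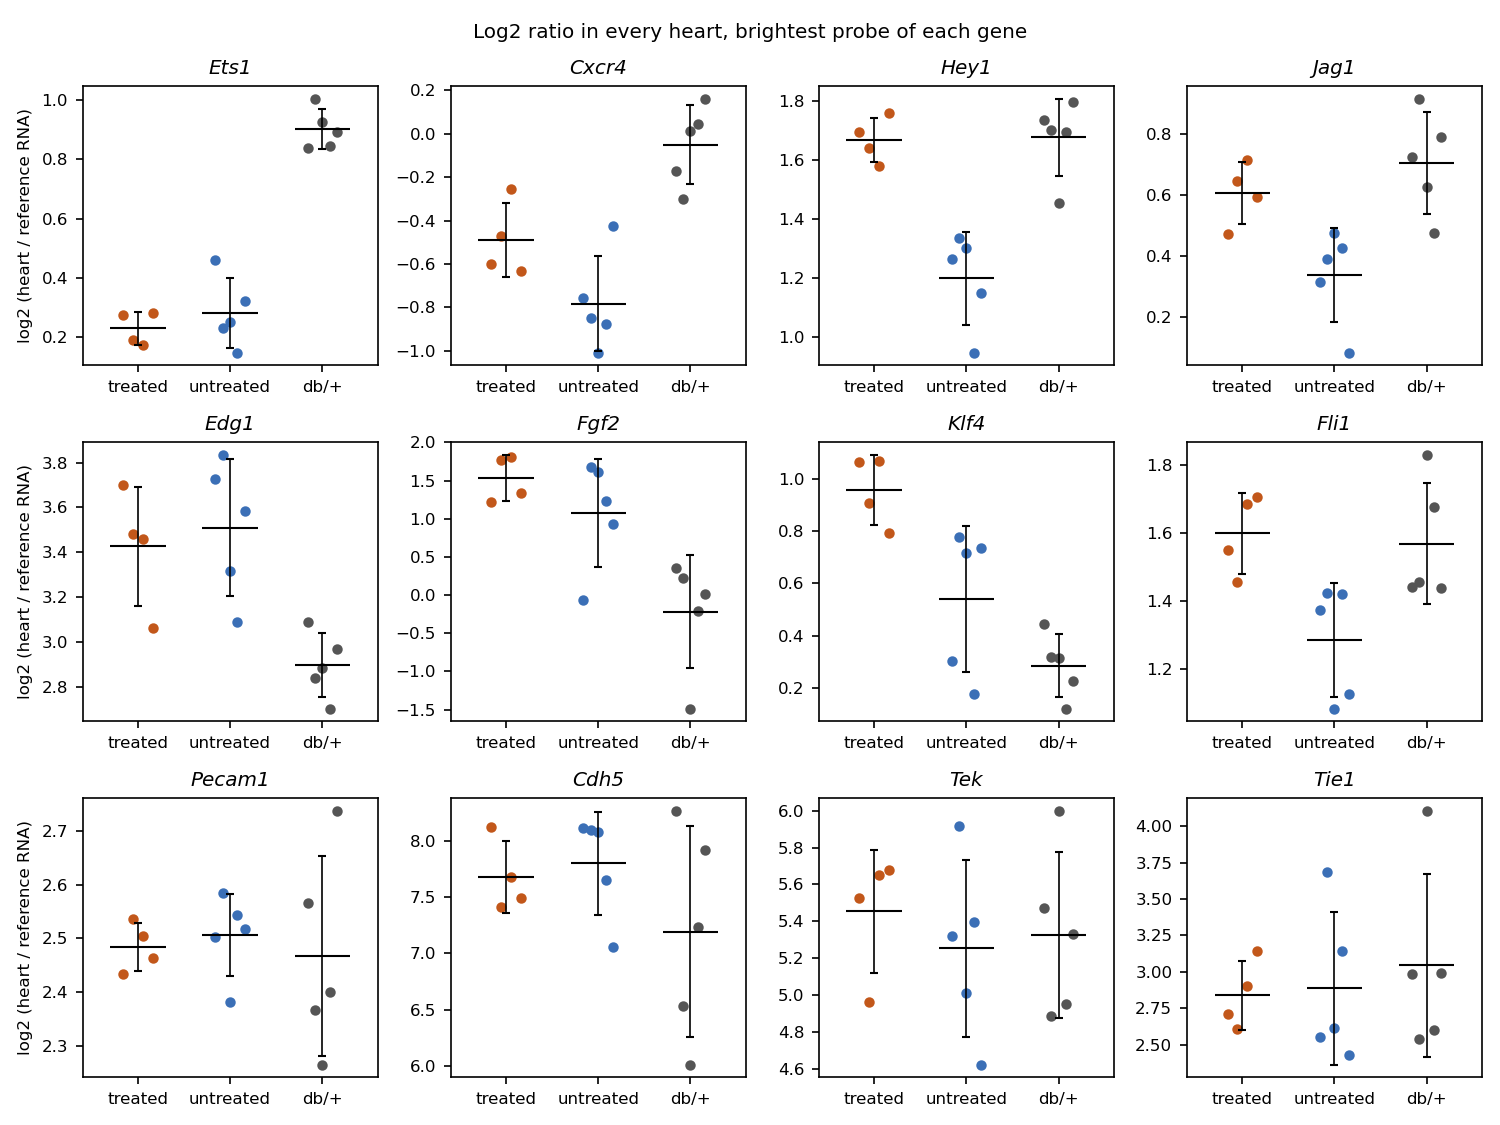
Log2 ratio of heart to reference at the brightest probe of 12 genes in every heart (points), with group mean and SD (lines), for 4 treated db/db, 5 untreated db/db and 5 db/+ hearts; the y axes differ. All db/db hearts lie below all db/+ hearts for Ets1, untreated hearts lie below both other groups for Hey1 and Fli1, and treated hearts lie above both other groups for Klf4, while the 4 genes of the bottom row overlap throughout.

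In the Notch pathway, the ligand Jag1 (at its brightest probe) and the target Hey1 were called as lower in untreated hearts. Hey1 is a transcriptional repressor that Notch induces directly. It measured 1.69, 1.64, 1.58 and 1.76 in treated hearts, 1.27, 1.34, 1.30, 0.95 and 1.15 in untreated hearts, and 1.74, 1.70, 1.45, 1.70 and 1.80 in db/+ hearts. The untreated hearts lay below every heart of the other groups, and the treated hearts lay among the db/+ hearts. The difference of untreated from db/+ hearts was -0.48 ± 0.09 (SE), 1.39-fold lower with adjusted p = 0.00976. With the remade ratios described below it was -0.34 with centring (adjusted p = 0.315), -0.46 with loess (adjusted p = 0.0136) and -0.05 with normexp (adjusted p = 0.892). That of treated from db/+ hearts was -0.01 (-0.22 to 0.21). Treated hearts exceeded untreated hearts by 0.47 ± 0.10 (SE). The unadjusted limma p of 0.00038 was the smallest of the 36 genes in that comparison (adjusted p = 0.389). Within slide 2 the difference of untreated hearts from the db/+ heart was -0.50, and within slide 3 that of treated from untreated hearts was 0.62. The 2 differences of untreated hearts rest on the same 5 untreated hearts.

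Jag1 measured 0.47, 0.65, 0.72 and 0.59 in treated hearts, 0.31, 0.39, 0.47, 0.43 and 0.08 in untreated hearts, and 0.73, 0.92, 0.63, 0.47 and 0.79 in db/+ hearts. The groups met at their edges. The difference of untreated from db/+ hearts was -0.37 ± 0.10 (SE), 1.29-fold lower with adjusted p = 0.0439, and the call was lost without any 1 of 12 of the 15 arrays, with adjusted p from 0.0528 to 0.099. It was kept without db/+ 4, treated 3 or treated 4. With the remade ratios described below the call was lost: -0.25 with centring, -0.36 with loess and -0.12 with normexp (adjusted p = 0.459, 0.0546 and 0.58). Treated hearts differed by -0.10 (-0.33 to 0.13) from db/+ hearts and by 0.27 from untreated hearts (unadjusted limma p of 0.0266). The second Jag1 probe was too dim to be tested. Its mean was higher in untreated hearts (0.72) than in db/+ hearts (-0.01).

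The other Notch genes did not pass. Dll4, the endothelial ligand that restrains tip cells, differed by -0.51 in treated hearts (adjusted p = 0.068), with no overlap, and by -0.26 in untreated hearts. In treated and untreated hearts the receptor Notch1 differed by 0.39 and 0.28, the endothelial receptor Notch4 by -0.11 and 0.08, and Hey2, which is also expressed in ventricular cardiomyocytes, by -0.09 and 0.04. Of 28 tested genes of a wider Notch list, 4 fell in untreated hearts and none rose, against 3.4% of all probes that passed as lower and 4.38% as higher. Beside Hey1 and Jag1 these were the ligand Dll1 (-0.47, adjusted p = 0.0115) and the target Hes5 (-0.59, adjusted p = 0.0436). In treated hearts Dll1 was the 1 gene that passed (-0.49, adjusted p = 0.0119). The median over the 28 genes was -0.06 in treated and -0.11 in untreated hearts, against 0.01 over all probes in each comparison.

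In the chemokine axis of Cxcl12, which recruits endothelial and blood cells, the receptor Cxcr4 was lower in untreated hearts at both probes. Of 6 tested genes of that axis, none was called in treated hearts by its brightest probe. In untreated hearts, where 3.4% of all probes were called as lower, Cxcr4 was the 1 gene called. At probe 1 it measured -0.60, -0.47, -0.25 and -0.63 in treated hearts, -0.75, -0.85, -1.01, -0.88 and -0.43 in untreated hearts, and -0.17, -0.30, 0.01, 0.05 and 0.16 in db/+ hearts. All untreated hearts lay below all db/+ hearts, and 1 treated heart lay within the db/+ range. The difference was -0.73 ± 0.12 (SE) in untreated hearts, 1.66-fold lower with adjusted p = 0.0041, and -0.44 in treated hearts with adjusted p = 0.0555. At probe 2 it measured -1.84, -1.41, -1.31 and -1.71 in treated hearts, -1.66, -1.24, -1.90, -1.94 and -1.66 in untreated hearts, and -0.52, -0.71, -0.43, -0.72 and -0.39 in db/+ hearts. Both db/db groups lay below all db/+ hearts there, by -1.01 ± 0.15 in treated hearts (2.02-fold, adjusted p = 0.00201) and by -1.12 ± 0.14 in untreated hearts (2.18-fold, adjusted p = 0.000655). Within slide 2 the difference of untreated hearts from the db/+ heart was -1.03 at probe 1 and -1.21 at probe 2.

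The ligand Cxcl12 gave calls at its dimmer probe. Probe 1 measured 0.45, 0.32, 0.70 and 0.83 in treated hearts, 0.03, 0.28, 0.62, 0.04 and 0.25 in untreated hearts, and 0.84, 0.57, 0.10, 0.57 and 0.83 in db/+ hearts, and the groups overlapped. Its difference was -0.00 (-0.37 to 0.36) in treated and -0.34 (-0.68 to 0.01) in untreated hearts. Probe 2 measured -3.81, -3.64, -3.61 and -3.60 in treated hearts, -3.46, -3.53, -3.50, -3.62 and -3.71 in untreated hearts, and -3.11, -2.93, -3.24, -3.12 and -3.06 in db/+ hearts. All db/db hearts lay below all db/+ hearts at probe 2. The difference was -0.57 ± 0.09 (SE) in treated hearts (adjusted p = 0.00215) and -0.47 ± 0.08 in untreated hearts (adjusted p = 0.00488). The probes were designed to 2 accessions of Cxcl12, so they need not read the same transcripts.

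**Figure D4:**
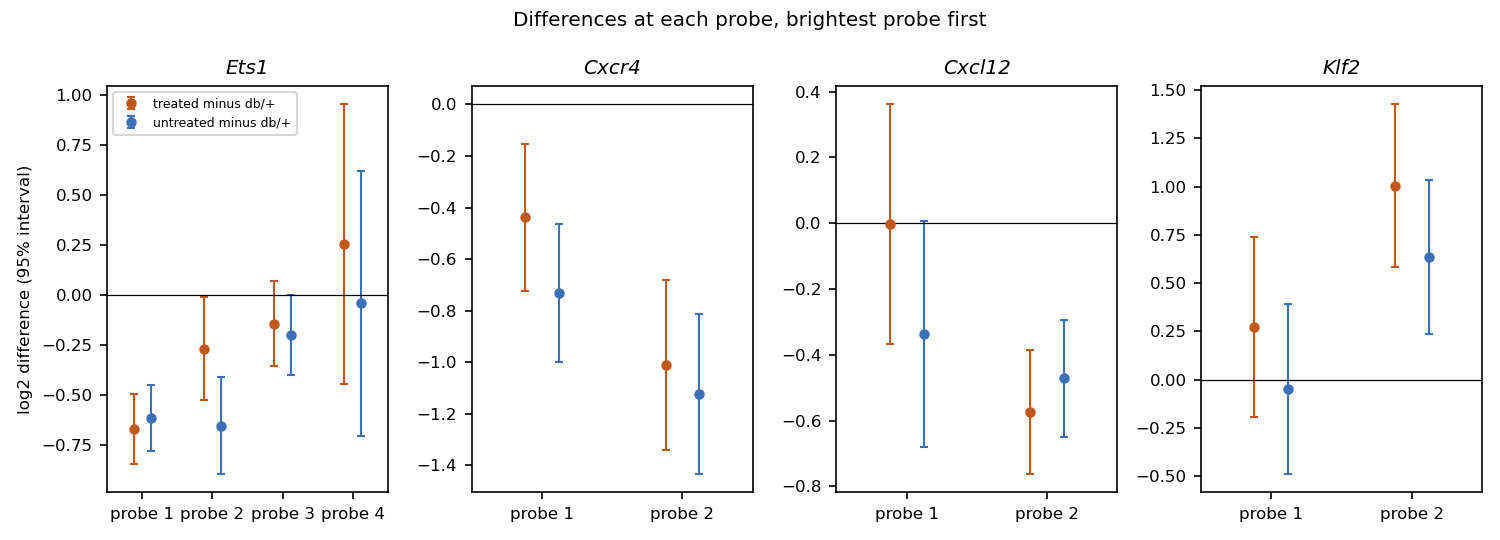
Log2 difference from db/+ hearts with its 95% interval at each tested probe of Ets1, Cxcr4, Cxcl12 and Klf2, for treated (orange) and untreated (blue) db/db hearts; probes run from the brightest to the dimmest and the y axes differ. Ets1 lies below 0 at probes 1 to 3 and Cxcr4 at both probes, while for Cxcl12 and Klf2 the intervals exclude 0 at probe 2 and include it at probe 1.

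Edg1, the sphingosine 1-phosphate receptor that stabilises vessels, was higher in untreated hearts. It measured 3.70, 3.48, 3.46 and 3.06 in treated hearts, 3.72, 3.83, 3.32, 3.09 and 3.58 in untreated hearts, and 3.09, 2.84, 2.89, 2.70 and 2.97 in db/+ hearts. Both db/db groups overlapped the highest db/+ heart and no other. The difference was 0.61 ± 0.15 (SE) in untreated hearts, 1.53-fold higher with adjusted p = 0.0285, and 0.53 in treated hearts with adjusted p = 0.0576. Within slide 2 it was 0.66. The call was lost without db/+ 2, 3 or 4 or untreated 1, 2 or 5, with adjusted p from 0.0511 to 0.0706. Of 7 tested genes of sphingosine 1-phosphate receptors and kinases, Edg1 passed in untreated hearts and the kinase Sphk1 in treated hearts (0.63, adjusted p = 0.0103), although not at the second Sphk1 probe (0.19). As higher, 4.38% of all probes passed in untreated and 4.5% in treated hearts.

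The other genes of the blood surface and vessel tone did not pass. Nos3, the endothelial nitric oxide synthase, differed by -0.23 (-0.59 to 0.13) in treated and -0.22 (-0.56 to 0.13) in untreated hearts. Thbd, the thrombin receptor that starts the protein C pathway, differed by -0.10 in treated and -0.33 in untreated hearts, the second with adjusted p = 0.153. In a list of genes of thrombospondins and the coagulation surface, 1 tested gene fell in treated hearts and 2 fell in untreated hearts. Of all probes, 4.23% passed as lower in treated and 3.4% in untreated hearts. Tfpi, the inhibitor of the tissue factor pathway, fell (-0.69 in treated and -0.59 in untreated hearts, adjusted p = 0.00773 and 0.0135). F3, tissue factor itself, fell in untreated hearts (-0.39, adjusted p = 0.0406). Its second probe differed by -0.38 there and was just short of a call (adjusted p = 0.052).

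Fgf2, a mitogen of endothelium that is also stored in heart muscle, was read by the dimmest of the 36 probes used for calls. The probe was well above background on all 5 treated arrays, 4 untreated and 2 db/+ arrays, so it was tested only because of the groups in which it was higher, and the size of its difference is uncertain. It measured 1.22, 1.78, 1.82 and 1.34 in treated hearts, -0.07, 1.68, 1.61, 1.23 and 0.93 in untreated hearts, and 0.36, 0.23, -1.49, -0.21 and 0.01 in db/+ hearts. The treated hearts lay above all db/+ hearts, and 1 untreated heart lay within the db/+ range. The difference was 1.76 ± 0.39 (SE) in treated hearts (adjusted p = 0.016) and 1.30 ± 0.37 in untreated hearts (adjusted p = 0.0472). With the normexp ratios described below it was 0.35 in treated and 0.34 in untreated hearts (adjusted p = 0.109 and 0.0776). The call in untreated hearts was lost without any 1 of 12 of the 15 arrays, with adjusted p from 0.0516 to 0.106, and was kept without db/+ 1, untreated 1 or treated 4. Of 16 tested ligands and receptors of the PDGF and FGF families, Fgf2 and the receptor Fgfr3 rose in treated hearts, and Fgf2, Fgf10 and the receptor Fgfr4 rose in untreated hearts. As higher, 4.5% of all probes passed in treated and 4.38% in untreated hearts. The second Fgfr3 probe was not called (0.40, adjusted p = 0.107). Nor were the other Fgfr4 probes, which differed by 0.25 and -0.15 (adjusted p = 0.292 and 0.543).

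Pdgfb, the ligand by which endothelium recruits pericytes, differed by 0.21 in treated and 0.22 in untreated hearts. Thbs1, an endogenous inhibitor of angiogenesis, was 0.68 higher in treated hearts than in db/+ hearts (adjusted p = 0.119) and 0.69 higher than in untreated hearts (unadjusted limma p of 0.0207), with no overlap in either case. Within slide 3 the Thbs1 difference of treated from untreated hearts was only 0.19. With the normexp ratios described below, that of treated from db/+ hearts was -0.25 (adjusted p = 0.696). Untreated heart 1 measured -4.64 for Thbs1, against -3.51 to -3.14 in the other untreated hearts. Angpt1, the agonist of Tek made by mural cells, differed by 0.32 and 0.12 in treated and untreated hearts, and Angpt2, its context-dependent antagonist, by 0.02 and -0.46. Treated hearts exceeded untreated hearts by 0.49 for Angpt2 (unadjusted limma p of 0.0384), and within slide 3 by 0.40. In the wider angiopoietin list of 13 tested genes, Angptl4, an inhibitor of lipoprotein lipase induced by PPAR factors, rose in both db/db groups, and Angptl7 fell in treated hearts. Of all probes, 4.5% passed as higher and 4.23% as lower in treated hearts, and 4.38% and 3.4% in untreated hearts. Angptl4 differed by 2.12 in treated and 2.86 in untreated hearts (adjusted p = 0.0459 and 0.0102).

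The BMP9 receptors were not called. Eng, the coreceptor endoglin, was 0.37 and 0.46 higher in treated and untreated hearts (adjusted p = 0.183 and 0.0905), and Acvrl1, the type I receptor ALK1, differed by -0.40 and -0.20 (adjusted p = 0.0955 and 0.374). In the wider list of 16 tested genes of that pathway, Smad6, an inhibitory SMAD, rose (0.95 in treated and 0.82 in untreated hearts, adjusted p = 0.00198 and 0.00329) and Id2, a helix-loop-helix inhibitor, fell (-0.49 in treated and -0.63 in untreated hearts, adjusted p = 0.0433 and 0.0126). The arterial ligand Efnb2 differed by -0.08 and -0.23 in treated and untreated hearts, and its venous receptor Ephb4 by 0.23 and 0.14. Of 19 tested Eph and ephrin genes, Efna1 fell in treated hearts and Epha1 rose in untreated hearts. For both lists, the shares of all probes were 4.5% higher and 4.23% lower in treated hearts. In untreated hearts they were 4.38% and 3.4%.

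A wider list of 29 cardiac endothelial genes, none of them among the 37, held genes that were lower in db/db hearts and none that were higher. In treated hearts 6 passed and in untreated hearts 5, with medians of -0.12 and -0.15. Over all probes, 4.23% passed as lower in treated and 3.4% in untreated hearts. Aplnr, the apelin receptor, was lowest, with differences of -2.12 in treated and -1.91 in untreated hearts (adjusted p = 0.000173 and 0.000281), but its other tested probe differed by 0.22 and -0.13. Aqp1, a water channel of capillaries and red cells, differed by -1.11 and -1.08 (adjusted p = 0.00711 and 0.00614), and Cav1, the coat protein of caveolae that adipocytes also make, by -0.48 and -0.65 (adjusted p = 0.0383 and 0.00762). The second Cav1 probe was not called. Adipocyte markers were lower in the same hearts, and their part in these values was not tested. Among 16 tested genes of endothelial junctions, Jam3, Cgnl1 and Ctnnb1 fell in both db/db groups and Cldn15 rose in both, with Ocln also higher in treated hearts. As higher, 4.5% of all probes passed in treated and 4.38% in untreated hearts. Jam3 differed by -0.63 and -0.68 (adjusted p = 0.0029 and 0.00116).

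The ratios of the 36 genes were also remade from the mean heart and reference signals less local background. With arrays centred on their median, which called 5.27% of all probes in treated and 4.19% in untreated hearts against db/+, 3 genes passed in treated hearts (Edg1, Klf4 and Fgf2) and 3 in untreated hearts (Edg1, Cxcr4 and Fgf2). With a loess fit within each array (8.35% of all probes in treated and 7.07% in untreated hearts), 5 passed in treated hearts (Edg1, Dll4, Ets1, Klf4 and Fgf2) and 5 in untreated hearts (Edg1, Hey1, Ets1, Cxcr4 and Fgf2). The loess ratios kept the sign of the deposited ratios for 33 of 36 genes in treated and 34 of 36 in untreated hearts, with median absolute shifts of 0.04 and 0.02. The largest shift was that of the dim Fgf2 probe, at 0.68 in treated and 0.39 in untreated hearts. None passed between treated and untreated hearts in any of these versions.

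With normexp background correction and an offset of 50 before the loess fit, most genes moved upward, while Fgf2 and Thbs1 moved downward. The median difference became 0.45 in treated and 0.47 in untreated hearts, against 0.03 and 0.05 over all probes. The sign was kept for 21 of 36 genes in treated and 23 in untreated hearts, and Sox17 moved by as much as 1.86 in treated and 2.01 in untreated hearts. Klf4 alone passed in treated hearts, where 5.36% of all probes did, and Edg1, Eng and Cxcr4 passed in untreated hearts, where 11.1% did. Among calls by the brightest probe, 3 results passed under the deposited and all 3 remade ratios. They were Klf4 in treated hearts and Edg1 and Cxcr4 in untreated hearts, with Cxcr4 only just under the threshold with centring (adjusted p = 0.0499). Calls at other probes are not counted there. The Cxcr4 calls at probe 2 were kept in 29 of 30 alternative settings in each db/db group. The Klf2 call at probe 2 in treated hearts was kept in 28 of 29.

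**Figure D5:**
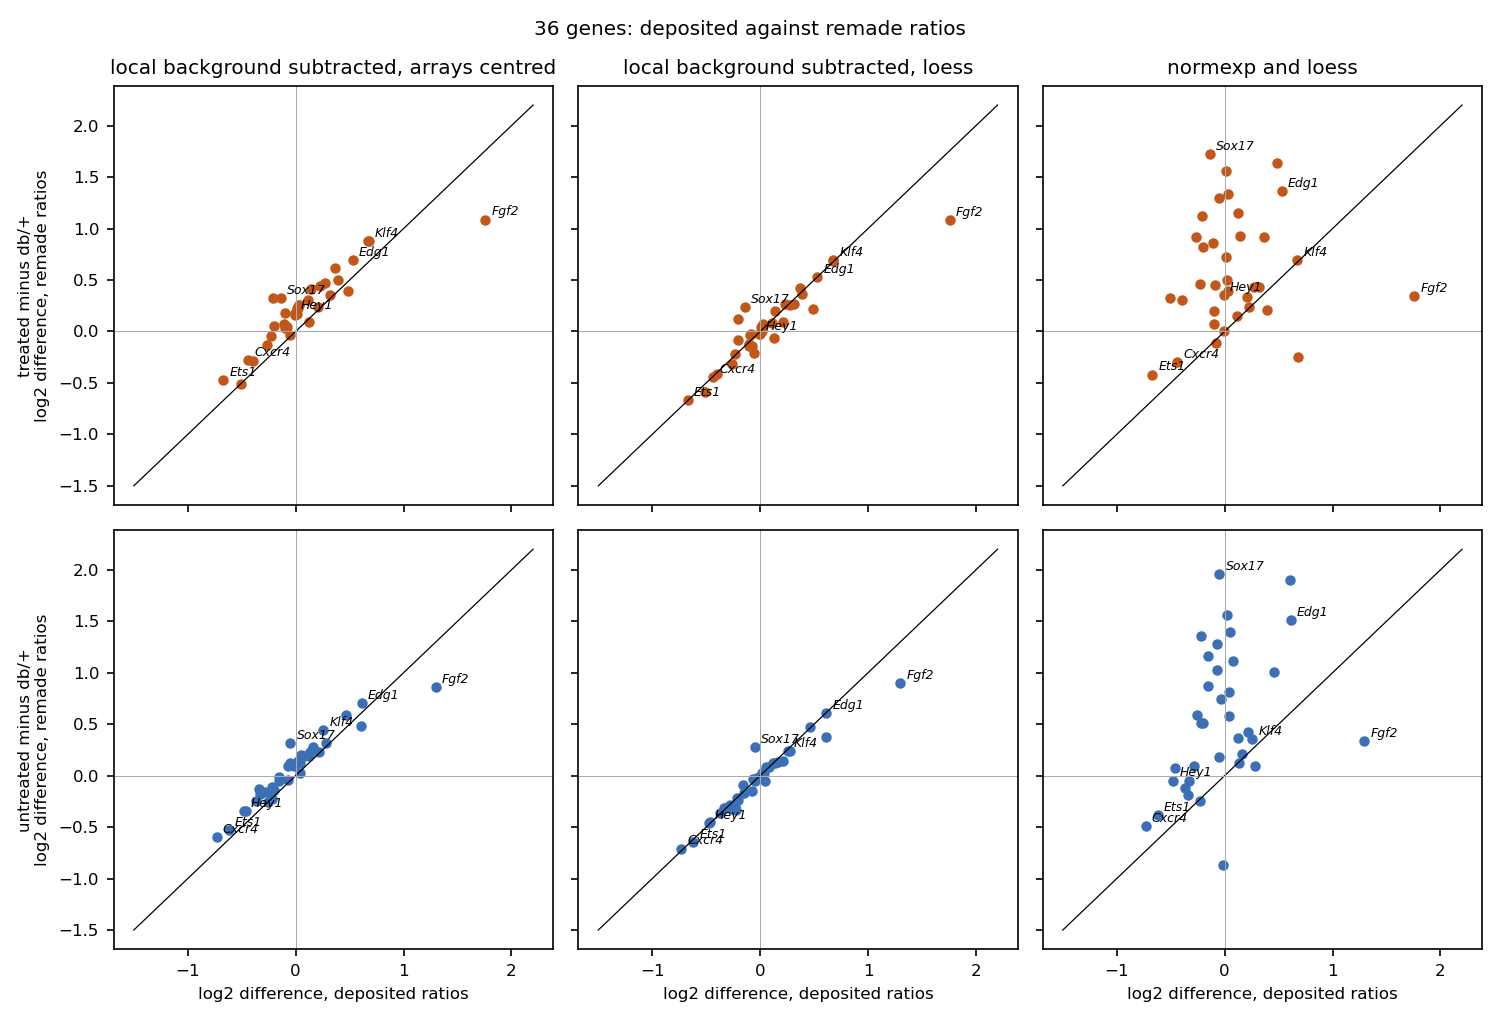
Log2 difference from db/+ hearts by remade ratios (y axis) against that by the deposited ratios (x axis) for 36 genes at their brightest probe, for treated (top row) and untreated (bottom row) db/db hearts, with the line of equality. Most points lie close to the line with local background and loess, with Fgf2 and Sox17 among those off it, and many lie far above it with normexp, up to Sox17.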

How the data were processed

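RNA of 15 whole hearts was hybridised to 2-colour Agilent mouse arrays of 45018 spots. Per the file headers and labels, the authors extracted signals with Agilent Feature Extraction 9.5.1, which subtracted background, normalised dyes by LOWESS and gave the deposited log10 ratio of heart to reference. This was rewritten as log2 and averaged over the spots of a probe. The deposited intensity values (mean spot signal and local background, not normalised by the authors) were used for the remade ratios, and 1.53% of probe values had none. The series' value table equalled the scanner ratios.

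Of 41174 probes, 27534 were tested, being well above background in the heart channel on at least 4 of 5 arrays of a group. limma 3.58.1 (lmFit and eBayes) in R 4.3.3 was fitted to 14 samples of the 3 groups, with treated replicates 3 and 4 averaged, and p-values were adjusted by Benjamini-Hochberg. The fit was tested on simulated data. Each group holds hearts that the labels give as separate samples, so p-values measure the spread between these hearts.

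The 37 genes and the lists were chosen with earlier results of these data known. A gene was named by its brightest probe. Values in every heart are given for genes that passed, for Pecam1, Cdh5, Tek and Tie1, for the 3 genes with the smallest unadjusted p between treated and untreated hearts, and for each probe of a gene whose probes differed in call. Lists covered cell types (cardiac and lymphatic endothelium, endocardium, mural cells, cardiomyocytes, fibroblasts, macrophages, platelets, red cells, adipocytes, hepatocytes) and pathways. Alternatives changed the background correction, normalisation, filter, blocks, weights, threshold and replicates. Part of the coagulation list is not reported here.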

Additional observations from a re-analysis of the deposited data

Results flagged for a closer look

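Over the 36 genes and 3 groups, 108 sets of hearts were searched for a single heart far from the rest, and 3 were found. This is a smaller share than the about 1 in 20 that chance gives. Klf2 at its brightest probe measured 2.89 in db/+ heart 1, against 2.08 to 2.27 in the other db/+ hearts. Thbs1 measured -4.64 in untreated heart 1, against -3.51 to -3.14 in the other untreated hearts. Tie1 measured 4.11 in db/+ heart 3, against 2.54 to 2.99 in the other db/+ hearts.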

How the results depend on the processing

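The 6 genes called in untreated against db/+ hearts became 3 with local background subtraction and centring, 3 with normexp, 0 with slide as a fixed block, 3 when only those groups were fitted, and 3 with db/+ heart 3 and untreated heart 2 left out, a setting chosen after seeing the data. It became 8 with slide as a random block and 7 at an adjusted p under 0.10, where 18.3% and 14.8% of all probes passed. Leaving out 1 array at a time gave 3 to 6 genes, and Hey1, Ets1 and Cxcr4 were among them each time. The 3 was reached without db/+ 2, db/+ 3, untreated 2 or untreated 5. The 3 genes called in treated against db/+ hearts became 5 with subtraction and loess, 1 with normexp (5.36% of all probes), 0 with slide as a fixed block, 8 with slide as a random block (18.6% of all probes, correlation within slides -0.11), 5 with array weights (11.1%) and 7 at an adjusted p under 0.10 (16.3%), and 3 to 4 with 1 array left out. No gene was called between treated and untreated hearts under any of these settings, and none of the called differences changed sign, although many that were not called did under normexp. The cause of these changes was not tested. Over all probes, 2142 calls in untreated hearts became 34 with slide as a fixed block and 5046 as a random block, and 2406 in treated hearts became 4 and 5131.

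Same-numbered hearts did not deviate together (r from -0.28 to 0.13 over 15 pairs). With the replicate block and treated replicates 3 and 4 kept separate, 5 genes were called in treated and 4 in untreated hearts against db/+. Keeping those replicates separate without the block gave 4 in treated and 6 in untreated hearts. Only 15 arrays limit the precision, and Fgf2 and Ets1 probe 4 were not well above background on several of them.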
